A study of Saccharomyces cerevisiae with 8 samples.

Results

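The genes described here encode 35 enzymes and subunits of the endoplasmic reticulum (ER) of budding yeast, Saccharomyces cerevisiae, that build sugar chains on dolichol, transfer mannose to proteins and make and attach glycosylphosphatidylinositol (GPI) anchors. They were chosen by identifier from the 6692 gene identifiers of the count table: 13 genes of the dolichol-linked N-glycan, the dolichol-phosphate-mannose synthase gene DPM1, the 4 protein O-mannosyltransferase genes PMT1 to PMT4, and 17 genes of GPI anchor synthesis and transfer. All 35 passed the low-count filter, as did 5336 genes in all.

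N-glycans are assembled on dolichol, a long lipid of the ER membrane, first on the cytosolic face and then, after flipping, in the lumen, before the chain is moved to a protein. The lumenal mannosyltransferases of this chain, the O-mannosyltransferases and the GPI mannosyltransferases take mannose from dolichol-phosphate-mannose. In yeast these pathways supply the secreted and cell wall mannoproteins and the GPI-anchored proteins of the plasma membrane and wall. Most of the enzymes cross the ER membrane several times. ALG13, the catalytic subunit of the next step after the first GlcNAc of the dolichol chain, is a cytosolic protein held at the membrane by its partner ALG14, and DPM1 is held by a hydrophobic segment at its C-terminal end.

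Cells had grown in rich medium (YEPD) at 30 °C to an OD600 of 0.6 and were exposed for 2 min to cycloheximide at 100 ug/ml, an inhibitor of elongation, in all 4 groups alike; the strain is not given in the sources used here. The groups were footprints (RNA stretches shielded from RNase I by a ribosome, 26 to 32 nt) from pooled monosome fractions, from pooled polysome fractions and from undivided lysate (global footprints), and mRNA fragments of 20 to 45 nt, each with 2 libraries. Whether the libraries of a group came from separate cultures is not in the labels, so p-values measure only how far these libraries spread, possibly for technical reasons. Total counts were 4723489 and 6443263 in the monosome libraries, 8686385 and 7494965 in the polysome libraries, 749057 and 552992 in the global libraries and 933252 and 672928 for mRNA. The enzymes were thinly covered in the shallow libraries, where their median count was 14 and 10 (global) and 35 and 29 (mRNA), against 103 and 142 in monosomes and 62 and 57 in polysomes. Levels below are CPM, counts scaled to library size and TMM factors, as mean ± SD over 2 libraries or as the values of the 2 libraries in replicate order. A CPM value is a share of its library, so a gene that is higher in monosomes may still have most of its footprints in polysomes, and in libraries from whole cultures fewer cells and less RNA per cell cannot be told apart.

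The 35 genes took 0.127% ± 0.00365 of all monosome counts, 0.0897% ± 0.000837 of polysome counts, 0.124% ± 0.00306 of global footprints and 0.405% ± 0.0142 of mRNA counts (SD, n = 2 each). DPM1 alone gave 62.5% ± 0.168 of their polysome counts, 30.0% ± 0.792 of their monosome counts, 33.5% ± 2.95 of their global footprints and 14.03% ± 0.146 of their mRNA counts. Without DPM1, the other 34 took 0.0891% ± 0.00356 of monosome counts and 0.0336% ± 0.000163 of polysome counts. Per kb of gene length, the mRNA level ran from 971 CPM for DPM1 and 423 CPM for PMT2 to 7.64 CPM for GPI11 and 4.32 CPM for GPI15, with a median of 29.8 CPM over the 35. The global footprint level per kb ran from 417 CPM for DPM1 to 2.82 CPM for MCD4, with a median of 12.1 CPM. Gene spans of SPT14 and GPI15 are no multiple of 3 and so may include an intron, which would lower their values per kb.

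Footprints of most of these enzymes took a larger share of monosome than of polysome libraries, and DPM1 went the other way. Of the 35, 25 passed as higher in monosomes and DPM1 alone passed as lower (edgeR quasi-likelihood test, Benjamini-Hochberg adjusted p under 0.05), against 36.6% higher and 33.5% lower among all 5336 genes. The median log2 fold change of monosome over polysome footprints was 1.12 over the 35 and 0.05 over all genes, and 19 of the 25 were higher by at least 2-fold. When library totals alone set the scale, the median over all genes moved to 0.50 and that of the 35 to 1.58, so changes are relative to the TMM scale. On that scale of library totals 31 of the 35 were higher and 1 lower, while 56.8% of all genes were higher and 16.2% lower. In 29 of the 35 genes both monosome libraries lay above both polysome libraries, against 44.1% of all genes, and in 1, DPM1, both lay below, against 40.3%. The 25 higher calls and the lower call of DPM1 stayed past the threshold in each of 15 alternative settings in which the gene was tested. In the authors' deposited table, 24 of the genes were higher and 1 lower, and the gene that differed was MCD4 (log2 fold change 0.70, adjusted p = 0.0800 in the authors' deposited table).

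**Figure D1:**
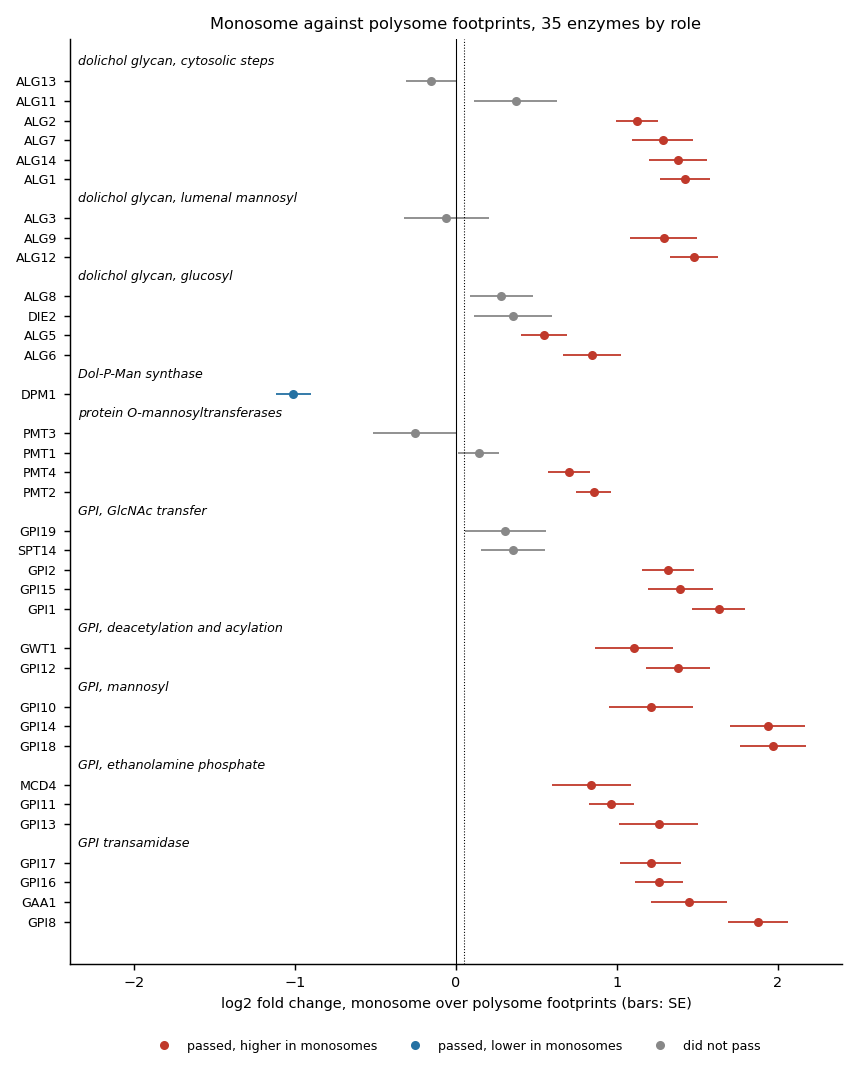
Log2 fold change of monosome over polysome footprints for the 35 genes (points, with SE as bars), grouped by role; the dotted line is the median over all genes tested. Of the 35, 25 lie to the right and passed, DPM1 lies to the left and passed, and 9 did not pass.

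On the cytosolic face of the dolichol pathway, 4 of 6 genes were higher in monosomes, beside 36.6% of all genes. ALG7, the GlcNAc-1-phosphate transferase that starts the chain and the target of tunicamycin (YBR243C, chromosome II, 705447 to 706793, R64 assembly), was at 16.7 and 20.7 CPM in the monosome libraries and 8.11 and 7.37 CPM in the polysome libraries. Monosome libraries of ALG7 both lay above the polysome libraries (log2 fold change 1.28 with SE 0.19 and, by edgeR, adjusted p = 2.84e-09). The next sugar is added by ALG13 and ALG14 together. ALG14, the membrane partner (YBR070C, chromosome II, 379221 to 379934), was at 19.5 and 26.8 CPM in monosomes and 8.24 and 9.83 CPM in polysomes (log2 fold change 1.38 with SE 0.18 and, by edgeR, adjusted p = 4.88e-11). ALG13, the cytosolic partner (YGL047W, chromosome VII, 411552 to 412160), was at 20.0 and 17.6 CPM in monosomes and 21.7 and 19.8 CPM in polysomes, ranges that overlap (log2 fold change -0.15 with SE 0.15 and, by edgeR, adjusted p = 0.375; 0.30 with library totals only, where it also did not pass). Raw counts of ALG13 were 1.03 and 0.657 times those of ALG14 in the monosome libraries and 2.63 and 2.01 times those in the polysome libraries. These ratios do not overlap, but 2 libraries against 2 cannot give less than p = 0.333 (exact permutation test, two-sided, p = 0.333).

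ALG1, which adds the first mannose (YBR110W, chromosome II, 458872 to 460221), was at 30.3 and 30.5 CPM in monosomes and 12.3 and 10.3 CPM in polysomes, with no overlap (log2 fold change 1.42 with SE 0.16 and, by edgeR, adjusted p = 1.02e-13). ALG2, which adds the next mannoses, was also higher (1.12). ALG11, the last mannosyltransferase of the cytosolic face, was at 5.40 and 8.42 CPM in monosomes and 6.15 and 4.77 CPM in polysomes and did not pass (0.37, edgeR adjusted p = 0.195), except with library totals only (0.83).

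In the lumen, the mannosyltransferase genes ALG9 (log2 fold change 1.29) and ALG12 (1.48) were higher in monosomes. ALG3, which adds the first lumenal mannose, had log2 fold change -0.06 and did not pass, with 40 and 34 raw counts in monosomes and 44 and 38 in polysomes. Of the glucosylation genes, ALG5, the dolichol-phosphate-glucose synthase (0.55), and ALG6, which adds the first glucose (0.85), were higher. ALG8 (0.28) and DIE2 (0.36), which add the following glucoses, did not pass, although their monosome libraries lay above their polysome libraries, and they passed with library totals only (ALG8 0.74, DIE2 0.81).

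DPM1, which makes the mannose donor of all lumenal mannosyltransferases (YPR183W, chromosome XVI, 900755 to 901558), was the most abundant of the 35 in every group per kb. It was at 313 and 305 CPM in monosomes and 632 and 613 CPM in polysomes, with 1797 and 2459 raw counts behind the former and 4830 and 4239 behind the latter. Both polysome libraries lay above both monosome libraries (log2 fold change -1.01 with SE 0.11 and, by edgeR, adjusted p = 2.42e-14). It stayed lower with library totals only (-0.56).

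The O-mannosyltransferases, which put mannose on serine and threonine in the ER lumen, were higher in 2 of 4 genes, beside 36.6% of all genes. PMT2 (YAL023C, chromosome I, 106272 to 108551) was at 87.0 and 87.2 CPM in monosomes and 47.5 and 48.9 CPM in polysomes (log2 fold change 0.85 with SE 0.11 and, by edgeR, adjusted p = 3.09e-11). PMT4, which acts as a homodimer (YJR143C, chromosome X, 698326 to 700614), was at 37.1 and 35.7 CPM in monosomes and 24.3 and 20.2 CPM in polysomes (0.70 with SE 0.13 and, by edgeR, adjusted p = 1.36e-06). In both genes the fractions were well apart. PMT1, which pairs with PMT2 (YDL095W, chromosome IV, 287059 to 289512), was at 37.3 and 32.9 CPM in monosomes and 33.5 and 29.8 CPM in polysomes, which overlap (0.14 with SE 0.13 and, by edgeR, adjusted p = 0.329). PMT1 passed as higher with library totals only (0.60) and with a filter that kept genes averaging 100 counts or more (0.38). Raw counts of PMT1 were 0.429 and 0.378 times those of PMT2 in monosomes and 0.705 and 0.609 times those in polysomes (exact permutation test, two-sided, p = 0.333, the smallest p that 2 against 2 allows). PMT3, a relative of PMT2, had 40 and 38 raw counts in monosomes and 59 and 40 in polysomes and did not pass (-0.25). The treatment of reads that match several genes is not stated, so reads from stretches that this family shares may be split.

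**Figure D2:**
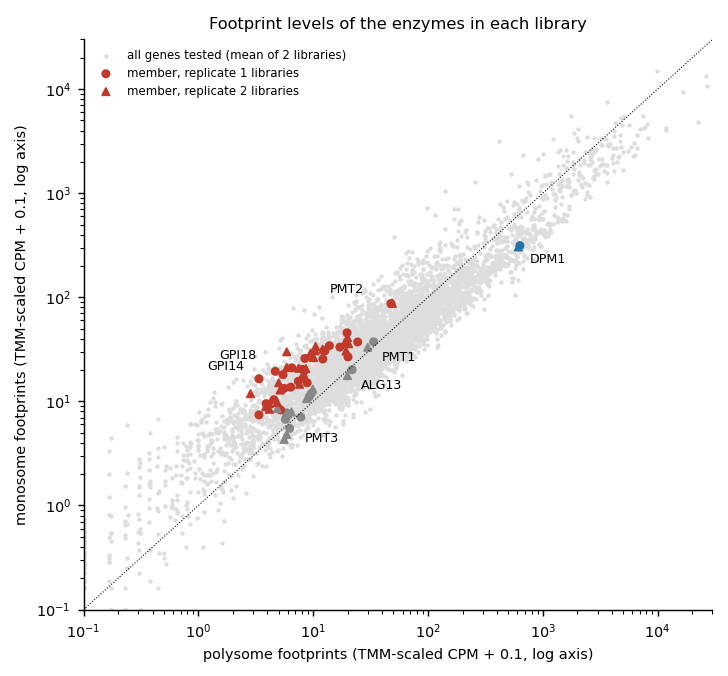
Monosome against polysome footprint level (TMM-scaled CPM + 0.1, log axes) of the 35 genes in the replicate 1 (circles) and replicate 2 (triangles) libraries, over all genes tested in light grey; red passed as higher in monosomes, blue as lower, dark grey did not pass. The library pairs of a gene lie close together, DPM1 lies below the line of equal level and most of the others lie above it.

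Of the 17 GPI genes, 15 were higher in monosomes and 2 did not pass, with a median log2 fold change of 1.26. Among all genes 36.6% were higher and 33.5% lower, with a median of 0.05. GPI synthesis starts with the transfer of GlcNAc to phosphatidylinositol by a complex of several subunits. Among these GPI1 (1.63), GPI15 (1.39) and GPI2 (1.32) were higher, and SPT14, the catalytic subunit (0.35), and GPI19 (0.31) did not pass. Both monosome libraries of SPT14 and of GPI19 lay above both polysome libraries, and the genes passed as higher with library totals only (SPT14 0.81, GPI19 0.76).

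GPI12, the deacetylase of the next step, was higher (1.38). GWT1, which acylates the inositol (YJL091C, chromosome X, 261080 to 262552), was at 10.3 and 9.66 CPM in monosomes and 4.45 and 4.77 CPM in polysomes (log2 fold change 1.11 with SE 0.24 and, by edgeR, adjusted p = 3.64e-05). The GPI mannosyltransferases followed. GPI18, which adds the second mannose (YBR004C, chromosome II, 244366 to 245667), had the largest log2 fold change of the 35, at 19.3 and 21.1 CPM in monosomes and 4.58 and 5.78 CPM in polysomes (1.97 with SE 0.20 and, by edgeR, adjusted p = 7.20e-15). GPI14, which adds the first mannose, lay close to it (1.94, SE 0.23), within the error of either value, and GPI10, which adds the third, was at 1.21.

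MCD4, the ethanolamine phosphate transferase of the first mannose (YKL165C, chromosome XI, 137932 to 140691), was at 8.19 and 8.30 CPM in monosomes and 5.10 and 4.05 CPM in polysomes (log2 fold change 0.84 with SE 0.24 and, by edgeR, adjusted p = 0.00162). The ethanolamine phosphate transferase gene GPI13 (1.26) and GPI11, a subunit that works with it (0.97), were higher as well. The transamidase, which swaps the C-terminal signal of a protein for the anchor, was higher in all 4 subunits. GPI8, its protease-like catalytic subunit (YDR331W, chromosome IV, 1129588 to 1130823), was at 20.2 and 29.9 CPM in monosomes and 7.98 and 5.78 CPM in polysomes (log2 fold change 1.87 with SE 0.19 and, by edgeR, adjusted p = 1.14e-15). GAA1 (YLR088W, chromosome XII, 316107 to 317951) was at 13.6 and 11.8 CPM in monosomes and 6.28 and 2.75 CPM in polysomes, where the libraries held 48 and 19 raw counts (1.45 with SE 0.24 and, by edgeR, adjusted p = 6.28e-08). The polysome libraries of GAA1 differed from each other more than its monosome libraries did, and still lay below them. GPI16 (1.26) and GPI17 (1.21) had nearly equal changes. Unlike those of ALG13 to ALG14 and PMT1 to PMT2, some raw-count ratios overlapped between monosome and polysome libraries. These were GPI8 to GAA1, GPI16 to GPI17 and PMT4 to PMT2. Ratios of DPM1 to ALG5 did not overlap.

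Genes of up to 600 nt had a median log2 fold change of 0.46 over the 799 in the table, and 1 of the 35 is that short. Between 1200 and 2400 nt the median was 0.02 over all 1935 genes and 1.21 over the 23 enzymes of that length, 17 of which were higher. Between 600 and 1200 nt it was -0.01 over 1689 genes and 1.14 over 8 enzymes, with 6 higher and 1 lower. GPI19, the shortest at 423 nt, did not pass. Across the 35, the rank correlation of the monosome to polysome ratio with gene length was -0.0866 and with mRNA level per kb -0.282, as a description of points that share their libraries. By membrane topology, assigned from textbook knowledge, 16 of 21 genes for proteins with several membrane spans were higher (median 1.11), as were 9 of 13 for proteins with 1 or few spans (median 1.21), which include DPM1. The class is least certain for GPI15, ALG2 and ALG11, all placed among those with 1 or few spans. Among all genes of any length or class, 36.6% were higher and 33.5% lower. No difference between the topology classes was tested.

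Among 53 other tested genes of the pathway, 40 were higher in monosomes and 7 were lower, against 36.6% and 33.5% of all genes. The lower ones all make sugar donors. Of 8 genes for the cytosolic enzymes that make the sugar nucleotides, 7 were lower in monosomes (median -1.20). They included PSA1, which makes GDP-mannose (log2 fold change -1.42 with SE 0.13 and, by edgeR, adjusted p = 4.17e-18), and PCM1, of UDP-GlcNAc synthesis (-1.35, SE 0.10). GNA1 had the smallest change of the 7 and passed narrowly (-0.24, edgeR adjusted p = 0.0369). UGP1, of UDP-glucose synthesis, was at -0.15 and did not pass. GFA1, also among the 7, overlaps another annotated gene over 255 nt, so its reads are uncertain. All 9 subunit genes of the oligosaccharyltransferase, which moves the finished chain to the protein, were higher (median 0.97), with OST4 at 2.92 and OST6 at 1.99. All 13 Golgi mannosyltransferase genes were higher (median 1.37), with MNN1 at 2.38 and KTR2 at 2.19. The 3 remaining O-mannosyltransferase family genes were higher, with PMT7 at 2.16 and PMT5 at 1.42.

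Of 11 further genes of GPI synthesis and remodelling, 9 were higher (median 1.69), with ERI1, a small subunit of the GlcNAc transferase, at 2.77 and LAS21, an ethanolamine phosphate transferase, at 2.50. The others, PBN1 (-0.21) and CDC1 (0.30), did not pass. Of 5 tested genes of dolichol supply, 4 were higher (median 1.67), with the dolichol kinase gene SEC59 at 2.08 and the reductase gene DFG10 at 1.77. RER2, the prenyltransferase subunit, was at 0.06 and did not pass, while its partner NUS1 passed at 0.83. Of 4 genes of N-glycan trimming, ROT2 (1.81) and CWH41 (1.00) were higher, and GTB1 (0.31) and MNS1 (0.44) did not pass. Genes that did not pass, and NUS1 and GNA1, were named after their values had been seen.

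**Figure D3:**
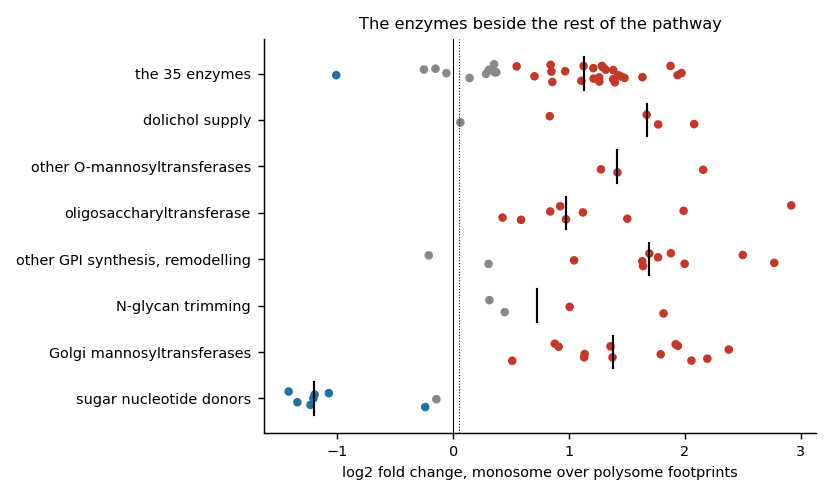
Log2 fold change of monosome over polysome footprints for the 35 genes and for 7 lists of other pathway genes (points, jittered vertically; black bars are medians; red passed as higher, blue as lower, grey did not pass; the dotted line is the median over all genes tested). The sugar nucleotide enzymes lie to the left with a median of -1.20, and the medians of the other lists lie to the right.

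The ratio of global footprints to mRNA, taken as translational efficiency, was low for most of the enzymes. Of the 35, 23 passed as lower and 3 as higher, against 31.0% and 34.8% of all genes, and the median log2 fold change was -1.64 against 0.15 over all genes. Both global libraries lay below both mRNA libraries in 25 of the 35, against 37.5% of all genes, and above them in 6, against 43.7%. With library totals only the medians were -0.88 over the 35 and 0.91 over all genes, and 6 of the 35 were higher and 20 lower, against 54.5% and 19.3% of all genes. ALG6 lay lowest, with 385 and 348 CPM in the mRNA libraries and 10 and 17.2 CPM in the global libraries (log2 fold change -4.80 with SE 0.22 and, by edgeR, adjusted p = 1.32e-36). Its mRNA level per kb, 224 CPM, was among the highest of the 35, and its global level per kb was 8.31 CPM.

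The O-mannosyltransferases showed the same gap in all 4 genes. PMT2 was at 969 and 960 CPM in mRNA and 63.3 and 65.8 CPM in the global libraries (log2 fold change -3.90 with SE 0.15 and, by edgeR, adjusted p = 1.28e-43). PMT4 was at 787 and 735 CPM in mRNA and 45.5 and 57.2 CPM in global footprints (-3.91), and PMT1 at 949 and 925 CPM and 62.2 and 97.3 CPM (-3.59). PMT3, with 2 and 10 global footprints and 46 and 47 mRNA counts, was also lower (-3.41, SE 0.39). In these genes mRNA and footprint libraries were far apart. PMT1, PMT2 and PMT4 held 333 to 423 CPM per kb of mRNA and 22.4 to 32.5 CPM per kb of global footprints.

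Of the dolichol pathway, the lumenal genes ALG3 (-4.05), ALG9 (-3.77), ALG12 (-1.60) and ALG8 (-3.05) were lower, as were DIE2 (-1.42, which did not pass with library totals only or without mRNA replicate 1) and ALG7 (-1.64). On the cytosolic face, ALG1 (0.08), ALG2 (0.22), ALG11 (-0.46) and ALG13 (0.63) did not pass, and neither did ALG5 (0.80). ALG13 had 18 and 14 global footprints and 11 and 4 mRNA counts. ALG14 passed as higher (1.27, edgeR adjusted p = 0.0297) on 20 and 10 global footprints and 5 and 4 mRNA counts. That call was lost without global replicate 1 (0.92, edgeR adjusted p = 0.249), mRNA replicate 1 (edgeR adjusted p = 0.0966) or mRNA replicate 2 (edgeR adjusted p = 0.0665), with RLE size factors and with DESeq2. DPM1 was at 809 and 753 CPM in mRNA and 359 and 312 CPM in the global libraries (log2 fold change -1.22 with SE 0.13 and, by edgeR, adjusted p = 3.20e-14).

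Of the 17 GPI genes, 11 were lower and 2 were higher in translational efficiency (median -1.96). Among all genes 31.0% were lower and 34.8% higher (median 0.15). MCD4 (-3.99), GPI16 (-3.78), GPI10 (-3.48), GPI13 (-2.72), GAA1 (-2.27), GPI1 (-2.02), GPI17 (-2.01), GPI18 (-2.0), GPI14 (-1.96, lost without mRNA replicate 1) and GWT1 (-1.31, lost with library totals only) were lower. SPT14 (-0.94, edgeR adjusted p = 0.0482) passed narrowly and was lost without polysome replicate 2, without either global or either mRNA replicate, with library totals and with no low-count filter. GPI8 (-0.41), GPI2 (-0.38), GPI19 (-0.24) and GPI12 (0.39) did not pass. GPI11 was higher, with 16 and 18 global footprints and 4 and 2 mRNA counts (log2 fold change 2.04 with SE 0.55 and, by edgeR, adjusted p = 0.000760). GPI15 was higher on 26 and 16 global footprints and 3 and 1 mRNA counts, a scaled ratio of 7.62 with a 95% counting interval of 2.77 to 29.3 (exact, for the summed counts and covering counting error only).

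Translational efficiency among these genes moved with gene length. The rank correlation across the 35 was -0.793, and it was -0.402 across 5264 genes with a known length. Across the 35, the mRNA level per kb rose with length (rank correlation 0.601) and the global footprint level per kb fell (-0.514). Neither of these correlations was taken over all genes. All 3 genes over 2400 nt were lower (median -3.59, against -0.33 over 841 genes of that length). Of the 23 enzymes between 1200 and 2400 nt, 19 were lower (median -2.01, against -0.29 over 1935 genes). Of the 8 between 600 and 1200 nt, 3 were higher and 1, DPM1, was lower (median 0.72, against 0.51 over 1689 genes). Among all genes of any length or class, 31.0% were lower and 34.8% higher. The part of gene length in the ratio was not tested. The class with several membrane spans (660 to 3054 nt, median 1668 nt) was lower in 19 of 21 genes (median log2 fold change -2.72). That with 1 or few spans (423 to 1833 nt, median 1236 nt) was lower in 4 and higher in 2 of 13 (median -0.24), and GPI15, of uncertain class, is one of the higher genes.

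**Figure D4:**
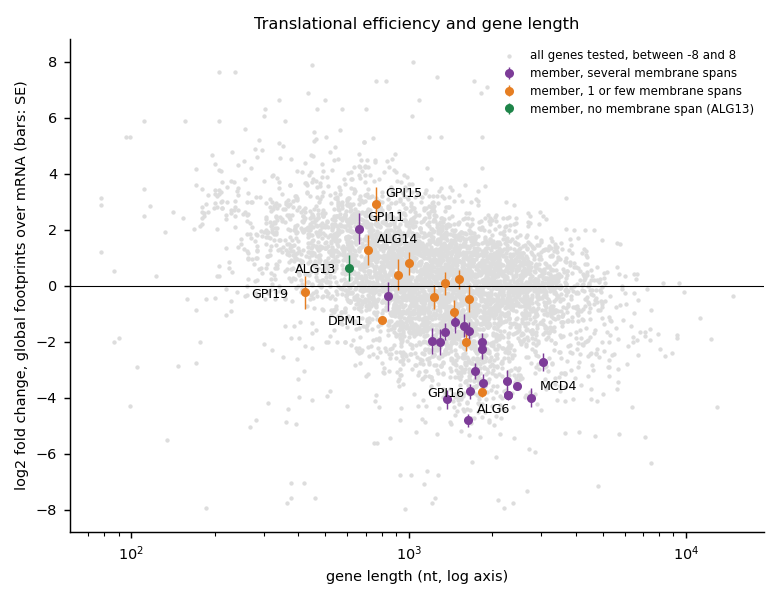
Log2 fold change of global footprints over mRNA (points, with SE as bars) against gene length (nt, log axis) for the 35 genes, coloured by membrane topology, over all genes tested with a value between -8 and 8 (grey). The longer enzymes lie lower, down to ALG6 at -4.80, and the short genes GPI15 and GPI11 lie highest.

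Each fraction was also set against the global footprints. These comparisons share the global libraries with each other and with translational efficiency, and the monosome and polysome libraries with the first comparison. In polysomes, 16 of the 35 were lower and DPM1 alone was higher, against 10% lower and 13.5% higher among all genes (median -0.81, against -0.02). On the scale of library totals 26 of the 35 were lower and 1 higher, while 37.5% of all genes were lower and 3.39% higher. In 26 both polysome libraries lay below both global libraries, against 30.8% of all genes. DPM1 was at 632 and 613 CPM in polysomes and 359 and 312 CPM in the global libraries (log2 fold change 0.89 with SE 0.12 and, by edgeR, adjusted p = 6.43e-09). ALG7 was lowest of the genes averaging 50 counts or more, at 8.11 and 7.37 CPM in polysomes and 15.5 and 31.5 CPM in global footprints (-1.54 with SE 0.32 and, by edgeR, adjusted p = 9.88e-05). The global libraries of ALG7 differed by more than the polysome libraries, and without global replicate 2 the call was lost (-0.99, edgeR adjusted p = 0.147). GPI15 (-1.98), GPI13 (-1.81), PMT1 (-1.30) and PMT4 (-1.18) were lower in each alternative setting in which they were tested. The count of 16 depended on single libraries. It fell when either global, either polysome or either mRNA library was left out, and most without global replicate 1. The share of all genes called lower fell in each of these fits too. Without global replicate 1 the median was -0.91 over the 35 and 0.01 over all genes. Without polysome replicate 2 these medians were -0.67 and 0.02.

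The other lower genes in polysomes were GWT1 (-1.70), GAA1 (-1.58), GPI10 (-1.31), ALG9 (-1.31), GPI8 (-1.28), ALG11 (-1.25), DIE2 (-1.11), ALG14 (-1.05), GPI16 (-0.94), ALG1 (-0.82) and ALG12 (-0.81). Each of these 11 was lost without global replicate 1. ALG13, at 0.05, did not pass in either direction (edgeR adjusted p = 0.922), and its global libraries lay at 20.0 CPM each.

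In monosomes, 7 of the 35 were higher than in global footprints and 2 were lower, against 22.2% and 24.3% of all genes, with a median of -0.02. GPI18 was at 19.3 and 21.1 CPM in monosomes and 5.55 and 10 CPM in the global libraries (log2 fold change 1.43 with SE 0.38 and, by edgeR, adjusted p = 0.00120), on 5 and 7 global footprints, and was lost without global replicate 1 (1.01, edgeR adjusted p = 0.122). GPI2 (1.41), GPI1 (1.00), GPI11 (0.71), ALG12 (0.67), ALG2 (0.61) and PMT2 (0.43) were also higher. Of the 7, GPI2 alone passed in each alternative setting in which it was tested. The number higher fell without global replicate 1 and without global replicate 2, and so did the share of all genes called higher. PMT1 lay lowest, at 37.3 and 32.9 CPM in monosomes and 62.2 and 97.3 CPM in global footprints (-1.16 with SE 0.18 and, by edgeR, adjusted p = 4.38e-08). PMT4 (-0.48, edgeR adjusted p = 0.0346) was lower too and was lost among genes averaging 100 counts or more and without monosome replicate 2, polysome replicate 2, global replicate 2 or either mRNA replicate. PMT1 and PMT4 also lay below the global footprints in polysomes (-1.30 and -1.18), so both fractions were lower for these genes. DPM1, at -0.12, did not pass (edgeR adjusted p = 0.426).

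**Figure D5:**
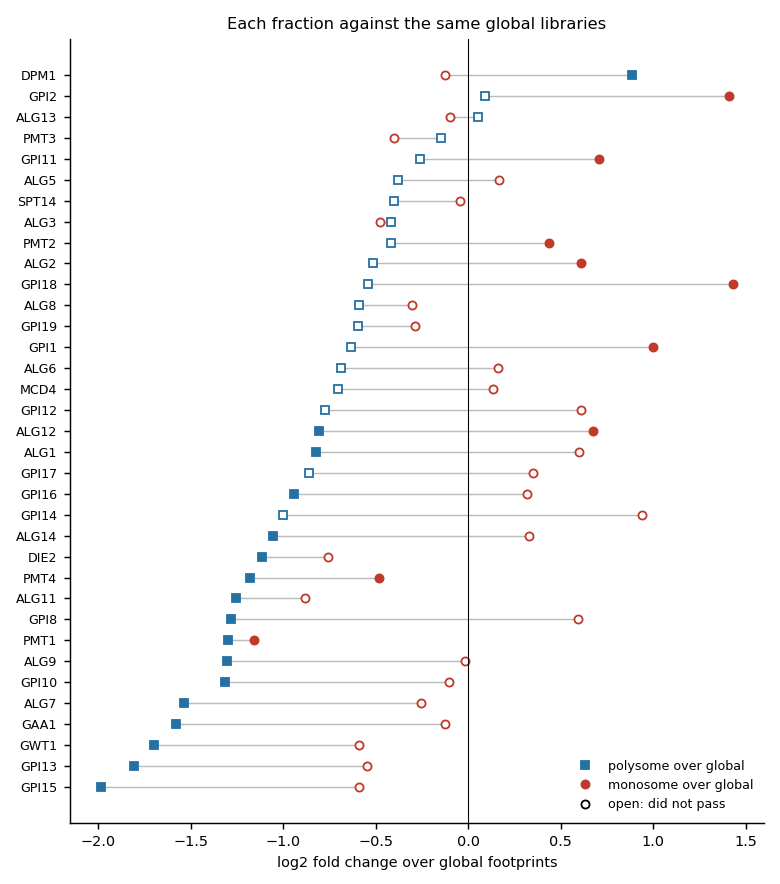
Log2 fold change of polysome (squares) and monosome (circles) over the same global libraries for each of the 35 genes, ordered by the polysome value; filled symbols passed and open symbols did not. Polysome values run from -1.98 for GPI15 to 0.89 for DPM1, and monosome values from -1.16 for PMT1 to 1.43 for GPI18.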

How the data were processed

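The authors deposited raw counts per gene for 8 libraries, for which the submitters' processing notes name TopHat, Bowtie, HTSeq and sacCer3 without versions. How strand and multiply matching reads were handled is not given in the sources used here. The authors' deposited log2 fold change and adjusted p-value carry DESeq2's column names, per the file headers. No name is given for the comparison, whose sign follows monosome over polysome counts; these log2 values and p-values were used only beside the first comparison.

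Counts were tested with edgeR 4.0.16 in R 4.3.3 (quasi-likelihood F test, 1 fit of 8 libraries and 4 groups, TMM factors, filterByExpr with minimum count 10 and minimum total 15, Benjamini-Hochberg adjustment over 5336 genes, threshold 0.05). SE is the size of the log2 fold change divided by the square root of F. Alternatives used DESeq2 1.42.0, other scalings and filters, a replicate block and leaving out each library. Ratios and intervals used Python 3.11.15 and scipy 1.17.1. Symbols, coordinates and lengths (introns included) come from the RefSeq table of R64, and none of the 35 genes overlaps another gene there. The fit was tested on simulated counts. No library pair of a group matched within sampling noise (chi-square over its degrees of freedom 1.49 to 5.42).

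Genes and lists were chosen with earlier results of these data known. Given in full are ALG7, ALG13, ALG14, ALG1, DPM1, PMT1, PMT2, PMT4, GPI8, GAA1, MCD4 and GWT1, and the largest and smallest change per comparison of genes averaging 50 counts or more. Full values are mainly those of the first comparison. Each pathway list gives its 2 largest passing changes each way.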

Additional observations from a re-analysis of the deposited data

How the results depend on the processing

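For monosome over polysome footprints, 25 higher and 1 lower call stood in all 15 alternatives where the genes were tested. With a filter that kept genes averaging 100 counts or more, 6 of the 35 were left. Of these 5 were higher and 1 lower, beside 38.6% and 36.2% of all genes, and 21 other pathway genes were higher. With library totals only the median of the 35 was 1.58 and 31 were higher, beside 56.8% of all genes. Leaving out each library gave medians of 1.09 to 1.13 over the 35, against 0.02 to 0.06 over all genes. For global footprints over mRNA, library totals gave 6 higher and 20 lower (54.5% and 19.3% of all genes). The stricter filter gave 0 higher and 5 lower (edgeR), beside 39.0% and 35.1% of all genes. Counts moved when a library was left out, with medians of -1.75 to -1.48. For monosome over global footprints, the stricter filter gave 2 higher and 1 lower, DESeq2 gave 4 higher, and leaving out a library 4 to 9 higher and 1 to 2 lower. For polysome over global footprints, library totals gave 26 lower (37.5% of all genes) and the stricter filter 5 (15.5% of all genes). Leaving out some libraries lowered the count, with medians of -0.91 to -0.67. The stricter filter tests fewer genes; the cause of the other moves was not tested. Of 1981 values of single genes under an alternative, 1877 kept their side of the threshold, 64 lost it, 40 gained it and no called direction turned.

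With the replicate block, higher and lower calls were 25 and 1 (monosome over polysome), 3 and 23 (global over mRNA), 7 and 2 (monosome over global) and 1 and 16 (polysome over global). Shares of all genes, in the same order, were 36.8% and 34.2%, 34.7% and 31.0%, 22.5% and 24.6%, and 14.7% and 10.4%. Deviations of same-numbered libraries correlated at -0.00844 to 0.0581, and no label says that a number marks a shared culture, so the number was not used as a pairing. A count of hydrophobic segments per protein was planned and not run; the membrane classes take its place and were added later. The shallow global and mRNA libraries, in which up to 17 of the 35 genes had under 10 counts, limit the comparisons that use them.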
